A study of Rattus norvegicus with 12 samples.

Results

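Complement is the plasma and tissue defence system in which proteases activate one another in a chain. The 8 complement genes described here were chosen by symbol, with earlier results of these data known. All 8 were found among the 18483 genes of the deposited expression tables. They fall into 3 roles. C1r, C1s and C2 (NCBI genes 312705, 192262 and 24231) encode proteases of the classical pathway, C3 and Cfb (24232 and 294257) encode the central component and the protease of the alternative pathway, and Serping1, Cd55 and Cd59 (295703, 64036 and 25407) encode regulators. In the RefSeq table of the GRCr8 assembly the identifier of the Cd59 row carries the name Cd59b.

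Libraries were made from RNA of neonatal rat ventricular myocytes (NRVMs), primary heart muscle cells of newborn Sprague-Dawley rats enriched on a Percoll gradient, in 4 groups of 3 independent biological replicates. siNeg cultures received a control siRNA, and siSlc39a2 cultures received an siRNA against the zinc importer Slc39a2. siNeg.PE and siSlc39a2.PE cultures received the same siRNAs and, by the labels, phenylephrine (PE, an alpha-1 adrenergic agonist that makes cardiomyocytes grow) for 36 h, starting 12 h after transfection. All groups were kept in medium with insulin, transferrin and selenium, and the knockdown rests on 1 siRNA sequence.

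In the classical pathway C1r activates C1s, which cleaves C4 and C2 to form the enzyme that splits C3. In the alternative pathway the C3 fragment C3b binds factor B (the Cfb product) to form a further C3-splitting enzyme, so that C3 cleavage amplifies itself. C1 inhibitor (the Serping1 product) inactivates C1r and C1s, CD55 takes the C3-splitting enzymes apart on the cell surface, and CD59 blocks the pore built at the end of the chain. The liver makes most plasma complement, other cell types make components locally, and interferons and inflammatory cytokines are known inducers of several of these genes, among them C2, Cfb and Serping1.

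RefSeq windows of 300 bases around the gene start, from 250 before to 50 after, matched 3 of the 8 members by gene. Every window found is shown, and none was picked by the pattern of its gene. Of these members, C1r was higher after knockdown, C3 was lower, and Cd55 moved with PE. Capitals mark the letters of the kappaB form GGGNNNNNCC and the C/EBP form TTGCNNAA on either strand (GRCr8; C1r at chr4:159098763-159099062 on the plus strand, C3 at chr9:2201290-2201589 and Cd55 at chr13:44438052-44438351 on the minus strand, each written in the direction of transcription).
C1r: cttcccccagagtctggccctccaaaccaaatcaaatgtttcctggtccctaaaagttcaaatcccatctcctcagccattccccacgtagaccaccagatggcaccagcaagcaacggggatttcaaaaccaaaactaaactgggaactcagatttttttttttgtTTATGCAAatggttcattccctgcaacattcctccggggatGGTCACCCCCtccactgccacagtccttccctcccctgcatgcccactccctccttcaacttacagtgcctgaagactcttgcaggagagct
C3: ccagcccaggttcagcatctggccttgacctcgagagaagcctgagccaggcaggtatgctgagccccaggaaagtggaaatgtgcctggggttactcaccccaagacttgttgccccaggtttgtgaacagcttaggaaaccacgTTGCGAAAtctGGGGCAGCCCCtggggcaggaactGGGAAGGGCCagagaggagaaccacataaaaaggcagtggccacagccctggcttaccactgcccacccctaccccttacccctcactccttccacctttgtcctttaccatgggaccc
Cd55: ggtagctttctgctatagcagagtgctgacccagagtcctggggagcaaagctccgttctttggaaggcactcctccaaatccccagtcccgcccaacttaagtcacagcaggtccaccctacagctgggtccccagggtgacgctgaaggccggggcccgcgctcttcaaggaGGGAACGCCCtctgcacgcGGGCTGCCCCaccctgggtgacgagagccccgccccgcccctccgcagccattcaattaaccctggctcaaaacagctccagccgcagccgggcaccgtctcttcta
The C1r window held 1 kappaB match, 42 bases before the gene start, and 1 C/EBP match, 83 bases before it. The C3 window held overlapping kappaB matches from 93 and 92 bases before the start, each on both strands, a further one at 69 bases and a C/EBP match at 104 bases. The Cd55 window held kappaB matches at 76 and 57 bases, each on both strands. Among all 33469 windows of this length, 47.3% held the kappaB form and 10.6% the C/EBP form, so the first is common. The interferon-response core GAAANNGAAA (3.92% of windows) and the GAS form TTCNNNGAA (8.87%) were not among the letters of these 3 windows. The matches describe letters and show no binding.

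The samples held from 24065539 to 28603854 expected counts in total. For Slc39a2, the targeted gene, the siNeg samples had 50, 50 and 59 counts and the siSlc39a2 samples 21, 11 and 2, while the siNeg.PE samples had 95, 198 and 182 and the siSlc39a2.PE samples 31, 25 and 38. Its log2 fold change was -2.35 (SE 0.46, adjusted p = 0.00098 from edgeR's quasi-likelihood test) without PE and -2.33 (SE 0.38, adjusted p = 0.000224 from edgeR) with PE. In summed FPKM, 10 cardiomyocyte markers were between 18970 and 20994 in siNeg and 19414 and 20802 in siNeg.PE, against 18903 and 19682 in siSlc39a2 and 17458 and 19241 in siSlc39a2.PE. The groups overlapped without PE, and with PE siSlc39a2.PE lay below siNeg.PE. Knockdown lowered 5 of these 10 markers without PE and 4 with PE at the adjusted p. Among them Myh6, the alpha myosin heavy chain (shared reads), was at -1.10 and -1.16. Beside these and the marker counts below, 26.4% of all genes tested were called lower and 22.8% higher without PE. With PE the shares were 28.1% lower and 29.2% higher. The 10 fibroblast markers summed to between 2529 and 3448 in siNeg and 1819 and 2374 in siNeg.PE, against 1126 and 1233 in siSlc39a2 and 753 and 1057 in siSlc39a2.PE. The 9 macrophage markers found summed to between 69.4 and 99.2, 34.7 and 45.7, 42.6 and 53.1, and 29.8 and 35.5 in the same order. Most of this sum was Lyz2 (76.7 CPM in siNeg and 35.6 in siSlc39a2, shared reads). Knockdown without PE lowered 4 and raised 1 of the 9, Aif1, while with PE it lowered 2 and raised 1. The 10 endothelial markers summed to between 68.2 and 72.8, 68.5 and 81.9, 39.2 and 41.7, and 39.0 and 45.4. This sum rested mainly on Eng (186 CPM in siNeg and 92.5 in siSlc39a2), and of 9 markers tested knockdown lowered 3 without PE, and lowered 1 and raised 1 with PE. No marker was at 0 in every sample of a group. In such bulk samples fewer cells of a type cannot be told apart from less RNA per cell.

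Knockdown of Slc39a2 without PE raised 5 of the 8 members and lowered 1. C1r, C1s, C2, Cfb and Serping1 rose by between 3.47-fold and 51.5-fold, C3 fell 2.20-fold, and Cd55 and Cd59 did not pass the test. These 6 genes passed both an adjusted p below 0.05 and an absolute log2 fold change above 1, which 9.78% of the 13967 genes tested did (4.57% higher and 5.21% lower). At the adjusted p alone the count was also 6, against 49.2% of all genes (22.8% higher and 26.4% lower). In CPM, 5 members had all siSlc39a2 samples above and 1 had them below all siNeg samples, as 27.9% and 30.6% of all genes did. The median log2 fold change was 1.84 over the 8 members and -0.02 over all genes tested. With PE in both groups, knockdown raised the same 5 genes and lowered C3 at both thresholds, which 11.6% of all genes passed (6.03% higher and 5.58% lower). Cd59 was a further call at the adjusted p alone, at which 57.3% of all genes were called (29.2% higher and 28.1% lower), and the medians were 1.36 and 0.01. In CPM, 6 members lay above and 1 below without overlap, as 31.8% and 31.7% of all genes did.

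**Figure D1:**
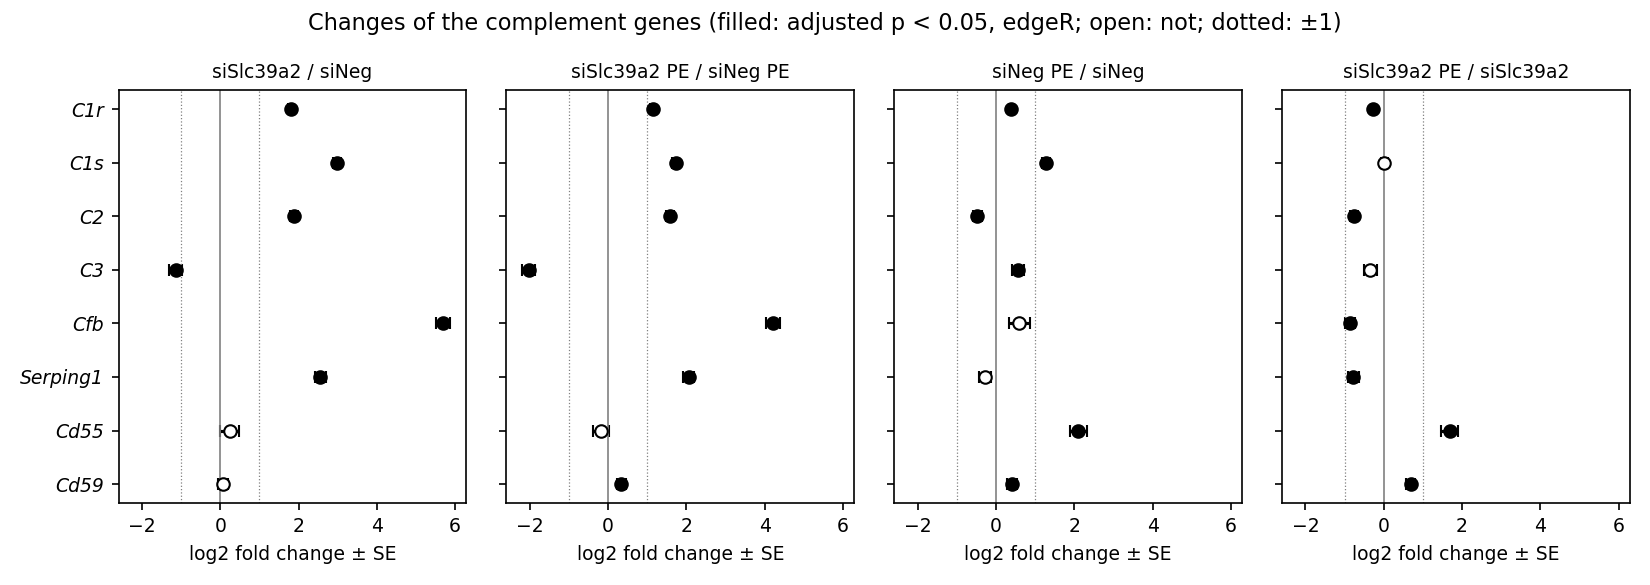
Log2 fold changes of the 8 complement genes in 4 comparisons, as points with standard errors from edgeR (n = 3 per group, filled where adjusted p is below 0.05). Points right of 0 were higher in the group named first in the panel title. Cfb lies farthest right in both knockdown comparisons (5.69 and 4.22), C3 lies left of 0 in both, and Cd55 lies near 0 in both and at 2.11 and 1.69 for PE.

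The genes of the classical pathway proteases rose together after knockdown. C1s, the protease that cleaves C4 and C2, had 12.8, 15.2 and 16.9 CPM (counts relative to the normalized library size) in siNeg and 121, 115 and 120 in siSlc39a2. It had 39.6, 36.7 and 32.9 in siNeg.PE and 116, 119 and 127 in siSlc39a2.PE, so every knockdown sample lay above every control sample and PE samples of the control lay in between. The log2 fold change for knockdown was 2.98 (SE 0.10, adjusted p = 7.17e-11 from edgeR), or 7.90-fold, without PE and 1.73 (SE 0.09, adjusted p = 1.25e-08 from edgeR) with PE. PE raised C1s in control cells by 1.28 (SE 0.10, adjusted p = 1.15e-06 from edgeR). After knockdown the PE difference was 0.02, with a 95% interval from -0.17 to 0.22. PE was thus followed by more C1s RNA with the control siRNA, and no further difference was detected on top of the knockdown.

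C1r, the protease that activates C1s, started higher and moved less. It had 92.3, 99.0 and 97.3 CPM in siNeg and 344, 341 and 317 in siSlc39a2, and 127, 127 and 123 in siNeg.PE and 271, 269 and 293 in siSlc39a2.PE. No sample of any group overlapped another group. Knockdown raised C1r by 1.80 (SE 0.06, adjusted p = 5.59e-11 from edgeR) without PE and 1.14 (SE 0.06, adjusted p = 6.33e-09 from edgeR) with PE on the log2 scale. PE raised it by 0.39 (SE 0.06, adjusted p = 0.00022 from edgeR) in control cells and lowered it after knockdown, at -0.27 (SE 0.06, adjusted p = 0.00151 from edgeR). C1r and C1s lie next to each other on rat chromosome 4, with 0 protein-coding genes between them in RefSeq. In FPKM, which is per length, C1s was 0.147 ± 0.0174 (SD, n = 3) of C1r in siNeg and 0.274 ± 0.0206 in siNeg.PE, against 0.336 ± 0.0200 in siSlc39a2 and 0.411 ± 0.00646 in siSlc39a2.PE.

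C2, whose product joins C4b in the classical C3-splitting enzyme, rose after knockdown and fell with PE. It had 10.6, 11.3 and 10.7 CPM in siNeg and 9.06, 7.67 and 6.86 in siNeg.PE, against 41.7, 41.9 and 36.2 in siSlc39a2 and 24.5, 24.6 and 21.6 in siSlc39a2.PE. The 4 groups did not overlap. Knockdown raised it by 1.88 (SE 0.11, adjusted p = 1.43e-08 from edgeR) without PE and 1.58 (SE 0.11, adjusted p = 9.78e-08 from edgeR) with PE. PE changed it by -0.47 (SE 0.11, adjusted p = 0.00418 from edgeR) in control cells and by -0.76 (SE 0.10, adjusted p = 4.64e-05 from edgeR) after knockdown.

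**Figure D2:**
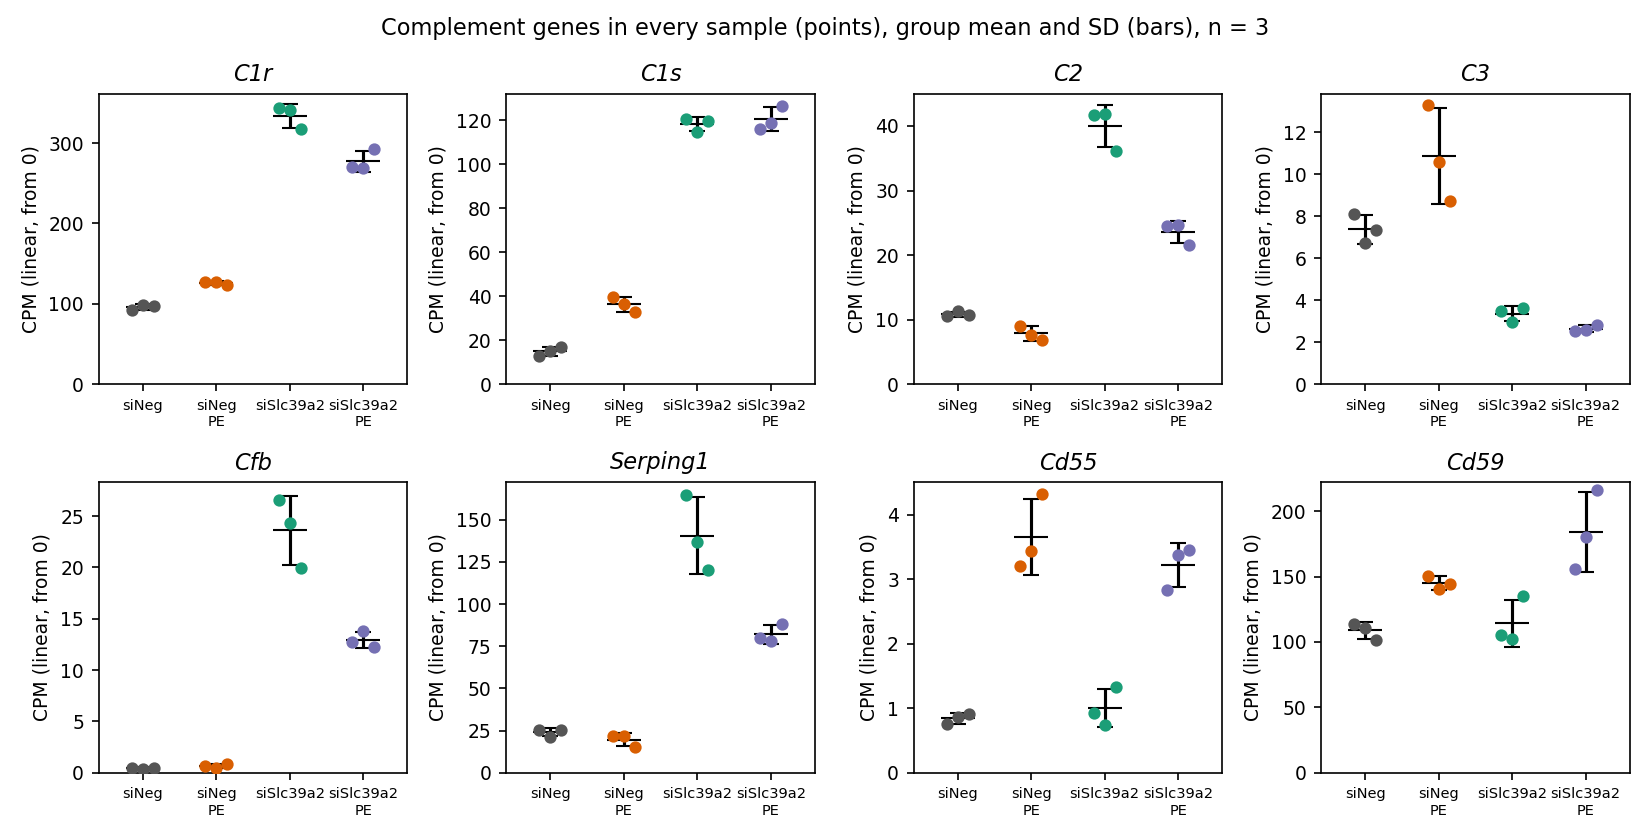
CPM of each complement gene in the 12 samples, with points for samples and bars for the mean and SD of each group (n = 3, linear axis from 0). The siSlc39a2 and siSlc39a2.PE samples lie above both control groups for C1r, C1s, C2, Cfb and Serping1 and below them for C3, while Cd55 separates by PE.

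Cfb and C3 moved in opposite directions after knockdown, although their products act in the same enzyme. For Cfb, the protease factor B, there were 12, 10 and 13 counts in siNeg and 19, 14 and 24 in siNeg.PE, against 768, 719 and 511 in siSlc39a2 and 341, 400 and 336 in siSlc39a2.PE. In CPM these were 0.474, 0.379 and 0.512, then 0.700, 0.492 and 0.880, then 26.6, 24.4 and 19.9, and then 12.7, 13.8 and 12.2. Both knockdown groups lay far above both controls, and siSlc39a2.PE lay below siSlc39a2. The log2 fold change for knockdown was 5.69 (SE 0.19, adjusted p = 7.34e-11 from edgeR), or 51.5-fold, without PE and 4.22 (SE 0.18, adjusted p = 1.05e-09 from edgeR), or 18.6-fold, with PE. On the log2(FPKM + 1) scale, which understates changes of low genes, limma gave 3.13 and 2.17. By absolute log2 fold change Cfb ranked 99th and 127th of the 13967 genes. After knockdown PE lowered Cfb, at -0.87 (SE 0.13, adjusted p = 0.000139 from edgeR). In control cells the PE difference was 0.60, with a 95% interval from 0.01 to 1.18 and an adjusted p of 0.0876 from edgeR. It passed the threshold at 0.79 (adjusted p = 0.0403 from edgeR) without siNeg.PE replicate 2. C2 and Cfb are neighbours on rat chromosome 20, with 0 protein-coding genes between them in RefSeq, and the ratio of C2 to Cfb in FPKM was 23.6 ± 4.40 (SD, n = 3) in siNeg and 1.67 ± 0.121 in siSlc39a2.

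C3, the component on which all pathways converge, had 8.10, 6.71 and 7.33 CPM in siNeg and 3.49, 2.95 and 3.63 in siSlc39a2. It had 13.3, 10.6 and 8.73 in siNeg.PE and 2.54, 2.59 and 2.84 in siSlc39a2.PE, so the knockdown samples lay below all control samples. The log2 fold change was -1.14 (SE 0.16, adjusted p = 8.29e-05 from edgeR) without PE and -2.03 (SE 0.16, adjusted p = 4.88e-07 from edgeR), or 4.09-fold lower, with PE. In limma on log2(FPKM + 1), a scale that understates changes of low genes, it was -0.63 without PE, inside the fold threshold, and -1.04 with PE. In control cells PE raised C3 by 0.56 (SE 0.15, adjusted p = 0.00876 from edgeR), and this call was lost in limma fits on FPKM (adjusted p = 0.0709 to 0.108). After knockdown the PE difference was -0.34, with a 95% interval from -0.70 to 0.03. The fibroblast marker sums given above were also lower in both knockdown groups. In CPM the collagens Col1a1 (10756 in siNeg and 3351 in siSlc39a2) and Col3a1 (3534 and 1227) were the highest of these markers. Of these 10 markers, 7 fell and 1 rose after knockdown without PE, with a median log2 fold change of -1.02. The same counts held with PE at a median of -0.97. In both comparisons Tcf21 was the marker that rose, and Pdgfra and Ddr2 were not called. Of all genes tested, 26.4% fell and 22.8% rose without PE, and 28.1% and 29.2% with PE. The part of fibroblasts in the values of C3 and of the other members was not tested. In FPKM the ratio of Cfb to C3 was 0.126 ± 0.0138 (SD, n = 3) in siNeg and 0.135 ± 0.0607 in siNeg.PE, against 14.4 ± 2.89 in siSlc39a2 and 9.84 ± 0.979 in siSlc39a2.PE.

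Of the regulators, Serping1 followed knockdown, Cd55 followed PE, and Cd59 varied least over the 12 samples (SD of log2 CPM 0.34, against 1.26 and 0.99). Serping1, the inhibitor of C1r and C1s, had 25.1, 21.1 and 25.5 CPM in siNeg and 21.7, 21.9 and 15.4 in siNeg.PE, against 165, 137 and 120 in siSlc39a2 and 79.8, 78.1 and 88.4 in siSlc39a2.PE. The control groups overlapped each other and lay below both knockdown groups. Knockdown raised it by 2.56 (SE 0.15, adjusted p = 1.63e-08 from edgeR), or 5.88-fold, without PE and by 2.06 (SE 0.14, adjusted p = 1.36e-07 from edgeR), or 4.17-fold, with PE. After knockdown PE lowered it, at -0.78 (SE 0.14, adjusted p = 0.000382 from edgeR). In control cells the PE difference was -0.28, with a 95% interval from -0.59 to 0.03.

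Cd55, the regulator that takes C3-splitting enzymes apart, was counted rarely without PE. Its siNeg samples had 19, 23 and 23 counts and its siSlc39a2 samples 27, 22 and 34, against 87, 98 and 118 in siNeg.PE and 76, 98 and 95 in siSlc39a2.PE. In CPM these were 0.750, 0.871 and 0.906, then 0.933, 0.745 and 1.33, then 3.21, 3.45 and 4.33, and then 2.83, 3.38 and 3.45. The PE samples lay above all samples without PE, whatever the siRNA. PE raised it by 2.11 (SE 0.22, adjusted p = 1.59e-05 from edgeR), or 4.32-fold, in control cells, where it ranked 138th by absolute log2 fold change, and by 1.69 (SE 0.22, adjusted p = 4.16e-05 from edgeR), or 3.23-fold, after knockdown. On the log2(FPKM + 1) scale limma gave 0.99 and 0.79, inside the fold threshold. The knockdown difference was 0.24 without PE, with a 95% interval from -0.29 to 0.77, and -0.18 with PE, with an interval from -0.61 to 0.24. These intervals do not show that Cd55 was the same in both siRNA groups.

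Cd59, the inhibitor of the terminal pore, had 114, 111 and 102 CPM in siNeg and 151, 140 and 144 in siNeg.PE, against 105, 102 and 135 in siSlc39a2 and 156, 180 and 216 in siSlc39a2.PE. Its PE samples lay above its samples without PE. PE raised it by 0.41 (SE 0.12, adjusted p = 0.0131 from edgeR) in control cells and 0.69 (SE 0.12, adjusted p = 0.00038 from edgeR) after knockdown. Knockdown with PE raised it by 0.34 (SE 0.12, adjusted p = 0.0254 from edgeR). This call was lost without siNeg.PE replicate 2 (adjusted p = 0.0772 from edgeR), without siNeg.PE replicate 3 (0.0602), without siSlc39a2.PE replicate 3 (log2 fold change 0.21, adjusted p = 0.132 from edgeR) and in 4 limma fits. Knockdown without PE gave 0.07, with a 95% interval from -0.19 to 0.33.

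In control cells PE changed 6 of the 8 members at the adjusted p, 5 higher and 1 lower, where 49.7% of all genes were called (24% higher and 25.7% lower). At both thresholds C1s and Cd55 rose, and 6.6% of all genes passed (3.8% higher and 2.8% lower). In CPM, 5 members lay above and 1 below without overlap, as 29.3% and 30.5% of all genes did. After knockdown PE raised Cd55 and Cd59 and lowered C1r, C2, Cfb and Serping1 at the adjusted p, where 60% of all genes were called (30.7% higher and 29.3% lower). Cd55 alone of the 8 also passed the fold threshold, which 10.5% of all genes did (6.34% higher and 4.17% lower). In CPM, 2 members lay above and 5 below without overlap, as 32.5% and 32.6% of all genes did. The median log2 fold change of the members was 0.49 in control cells and -0.30 after knockdown, against -0.01 and 0.01 over all genes. The comparisons of PE and of knockdown share groups of samples, so their values are given side by side only.

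The interaction compares the knockdown effect with PE with that without PE. It was negative and passed the adjusted p for 4 of the 8 members, C1r, C1s, C3 and Cfb, where 3.61% of all genes were called (1.73% higher and 1.88% lower). It was -0.65 for C1r (SE 0.08, adjusted p = 0.000752 from edgeR), -1.26 for C1s (SE 0.13, adjusted p = 0.000213 from edgeR) and -1.47 for Cfb (SE 0.30, adjusted p = 0.0174 from edgeR), so the increases of these genes were smaller under PE. For C3 it was -0.90 (SE 0.23, adjusted p = 0.0492 from edgeR), so its decrease was larger under PE. C1s and Cfb also passed the fold threshold, as 0.988% of all genes did (0.451% higher and 0.537% lower). The C3 call was lost in 10 of the 12 fits that left out 1 library, with an adjusted p of up to 0.127 from edgeR, and in 4 limma fits. The Cfb call was lost without siNeg replicate 2 (adjusted p = 0.0654 from edgeR), siNeg.PE replicate 1 (0.0515) or siNeg.PE replicate 3 (0.0517). The interaction intervals were -0.62 to 0.03 for C2, -0.92 to -0.07 for Serping1, -1.10 to 0.26 for Cd55 and -0.09 to 0.64 for Cd59, with adjusted p values from 0.234 to 0.579 from edgeR.

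Levels of different genes were compared in FPKM, the authors' values scaled to gene length and library size. In siNeg the order was Cd59 (72.2 ± 2.95, SD, n = 3), C1r (34.9 ± 1.95), Serping1 (13.2 ± 1.37), C1s (5.15 ± 0.835), C2 (4.09 ± 0.195), C3 (1.40 ± 0.105), Cd55 (0.463 ± 0.0603) and Cfb (0.177 ± 0.0252). Of neighbours in this order, C1s and C2 overlapped. In siNeg.PE Cd59 (101.7 ± 1.81) and C1r (48.1 ± 1.11) again led, C1s (13.2 ± 1.08) overlapped Serping1 (11.4 ± 2.14), C3 (2.17 ± 0.425) overlapped Cd55 (2.08 ± 0.387), and Cfb (0.28 ± 0.08) was last.

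In siSlc39a2 C1r led with 134 ± 4.13 FPKM (SD, n = 3), followed by Serping1 (85.6 ± 13.1) and Cd59 (83.7 ± 14.7), which overlapped. C1s had 44.8 ± 1.69, C2 16.6 ± 1.13 and Cfb 9.98 ± 1.31, while C3 (0.703 ± 0.0833) and Cd55 (0.597 ± 0.188) overlapped at the end of the order. In siSlc39a2.PE Cd59 (129.9 ± 22.3) overlapped C1r (107 ± 5.23), Serping1 (48.2 ± 3.36) overlapped C1s (43.9 ± 2.17), and C3 was last at 0.537 ± 0.0306. The lowest of the 8 was therefore Cfb in the control groups and C3 in siSlc39a2.PE. The 8 genes summed to 131.5 ± 1.60 FPKM in siNeg and 182.0 ± 4.71 in siNeg.PE, against 375.6 ± 13.0 in siSlc39a2 and 345.9 ± 32.1 in siSlc39a2.PE. C1r, C1s and C2 made up 33.5% ± 1.93 (SD, n = 3) of this sum in siNeg and 51.95% ± 1.61 in siSlc39a2, and the 3 regulators 65.3% ± 1.87 and 45.2% ± 1.80. These shares were not tested.

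**Figure D3:**
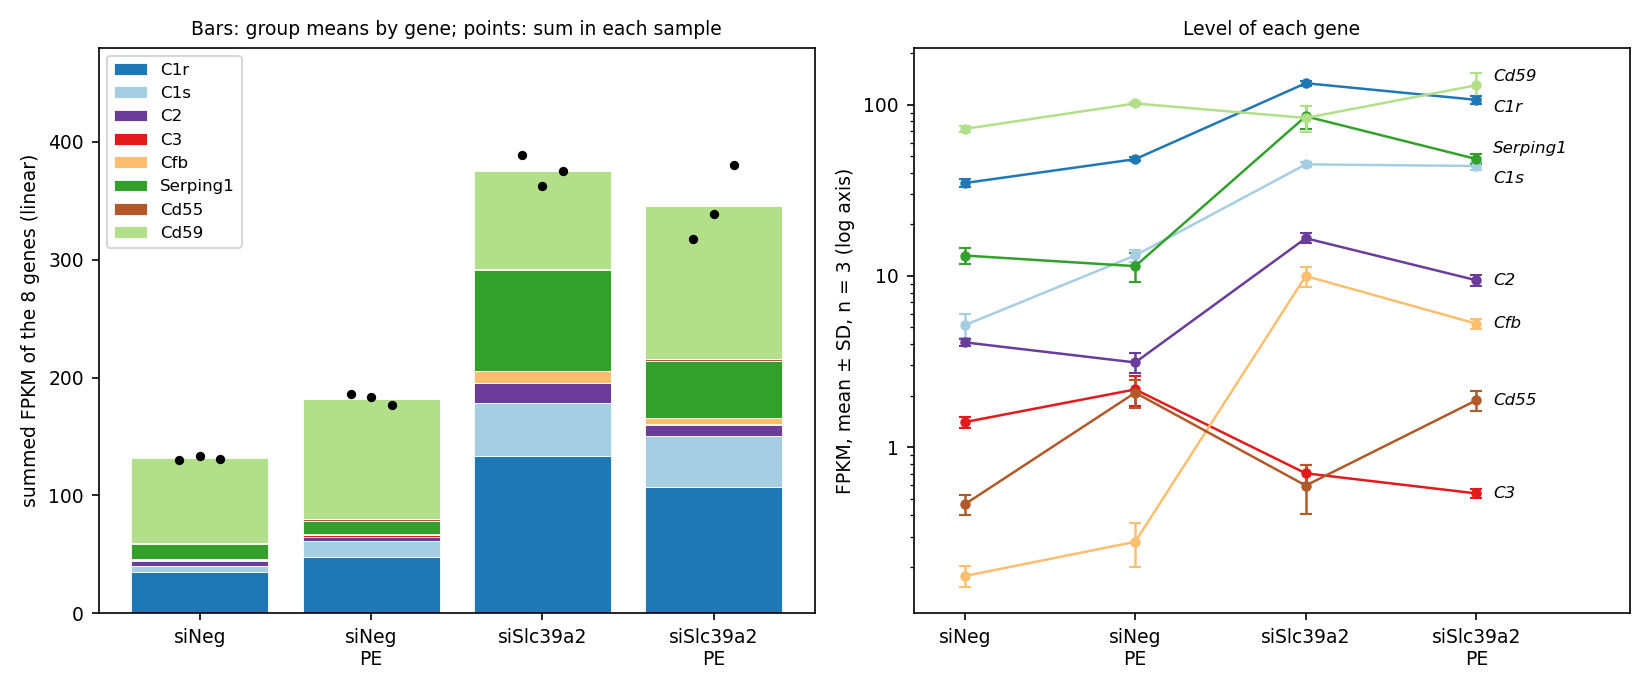
Left, stacked bars of the mean FPKM of the 8 complement genes in each group, with points for the sum in each sample (linear axis). Right, mean and SD of each gene (n = 3, log axis). Summed FPKM was 131.5 in siNeg and 375.6 in siSlc39a2, and Cfb moved from the lowest mean in siNeg to above C3 and Cd55 in both knockdown groups.

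The other complement genes moved in both directions. Of 49 further symbols listed for the pathway, 39 were in the table and 22 were tested, while 17 had too few counts (at most 18 in any sample, and at most 3 in every sample for 9 of them, C5, C8a and Cfi included). Knockdown without PE raised 6 and lowered 9 of the 22 at the adjusted p, with a median log2 fold change of -0.37, and knockdown with PE raised 4 and lowered 9, with a median of -0.50. Of all genes tested 49.2% and 57.3% were called in these comparisons, with medians of -0.02 and 0.01. The medians were unchanged with C4a at the fold obtained when its controls were set to 3 counts per library. PE raised 4 and lowered 5 in control cells (median -0.20) and raised 3 and lowered 10 after knockdown (median -0.41), where 49.7% and 60% of all genes were called (medians -0.01 and 0.01). At both thresholds 7, 8, 4 and 6 of the 22 were called in these comparisons, against 9.78%, 11.6%, 6.6% and 10.5% of all genes.

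Of the initiation genes, C4b, which encodes a substrate of C1s, rose after knockdown. Its level was 3.06 ± 0.790 CPM (SD, n = 3) in siNeg and 2.97 ± 0.172 in siNeg.PE, against 77.6 ± 6.95 in siSlc39a2 and 32.2 ± 2.55 in siSlc39a2.PE, with log2 fold changes for knockdown of 4.66 (SE 0.15, adjusted p = 3.24e-11 from edgeR) and 3.44 (SE 0.14, adjusted p = 7.95e-10 from edgeR). Its interaction was -1.22 (SE 0.20, adjusted p = 0.00481 from edgeR). C4a is a near-identical copy that shares reads with it, so the split between them is uncertain. C4a was assigned 0 to 1.41 expected counts in siNeg and 9.18 to 27.5 in siSlc39a2. With the controls set to 3 counts per library the difference was 5.12-fold, and 3.95-fold with PE. That setting covers low control counts only. How many of the C4a counts were reads of C4b was not tested, so no minimum change of C4a is given. Summed over both genes the level was 3.09 ± 0.806 CPM (SD, n = 3) in siNeg and 78.2 ± 7.21 in siSlc39a2. Colec11, a lectin that starts the lectin pathway, fell after knockdown by 1.92 without PE and by 1.76 with PE on the log2 scale. It was low, with 8 to 14 counts per siSlc39a2 sample and 4 to 6 per siSlc39a2.PE sample. Its mean was also lower with PE in control cells, at 0.578 CPM against 1.45 in siNeg. PE lowered Masp1, a lectin pathway protease, by 1.23 after knockdown. In control cells Masp1 was also lower with PE, at 33.1 ± 3.23 CPM (SD, n = 3) against 64.7 ± 2.04 in siNeg.

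Among receptors, C3ar1, the receptor of the C3a fragment, rose in all 4 comparisons at the adjusted p. Its level was 3.53 ± 0.308 CPM (SD, n = 3) in siNeg and 8.20 ± 0.957 in siNeg.PE, against 5.68 ± 0.635 in siSlc39a2 and 19.4 ± 1.62 in siSlc39a2.PE. Knockdown with PE raised it by 1.24 (SE 0.12, adjusted p = 2.52e-06 from edgeR), and PE after knockdown by 1.77 (SE 0.12, adjusted p = 2.09e-07 from edgeR). Itgax and Itgb2, chains of the leukocyte receptors for fragments of C3, had knockdown log2 fold changes of -1.12 and -1.32 without PE and -1.61 and -1.19 with PE, all past both thresholds. Itgb2 shares reads with another gene (208.03 expected counts in siNeg replicate 2) and is uncertain to that extent. The macrophage marker sums given above were also lower in siSlc39a2 than in siNeg, and their part in these values was not tested. Cd93, a receptor of endothelial and myeloid cells, fell by 1.51 after knockdown without PE and rose by 1.10 with PE after knockdown. Both values rest on 3 to 8 counts per siSlc39a2 sample. Of the further regulators, Susd4 fell by 1.96 and by 1.07 after knockdown and by 1.18 with PE in control cells, and Csmd1 rose by 1.03 with PE in control cells at group means of 0.720 CPM or less. C7, a component of the terminal pore, fell by 1.32 after knockdown with PE. Without PE its level was also lower after knockdown, at 19.8 ± 3.01 CPM (SD, n = 3) against 37.5 ± 5.56 in siNeg. C8g fell by 1.02 with PE after knockdown, and both genes have shared reads.

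**Figure D4:**
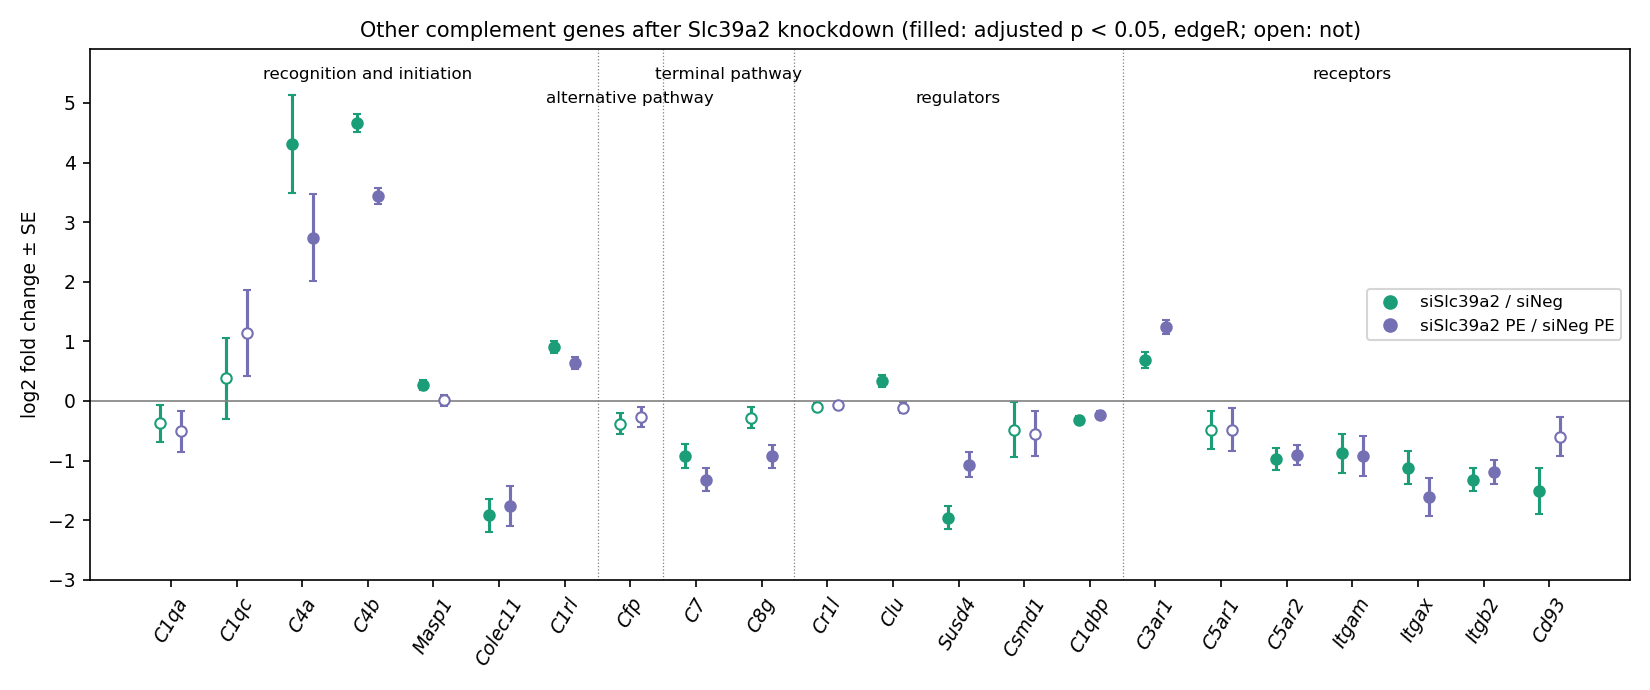
Log2 fold changes of the 22 tested genes of the wider complement list, grouped by role, after knockdown without and with PE, as points with standard errors (edgeR, n = 3 per group, filled where adjusted p is below 0.05). C4b and C4a stand apart on the positive side in both knockdown comparisons (4.66 and 4.31 without PE), and Susd4 (-1.96) and Colec11 (-1.92) lie lowest without PE. C4a shares reads with C4b and had 0 to 1.41 expected counts in siNeg. Its value is therefore uncertain. With siNeg set to 3 counts per library it was 5.12-fold without PE, which does not account for the shared reads.

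For each member, the genes with the most similar profile over the 12 samples were found by the root mean square difference of log2 CPM, each gene centred on its own mean, among 11748 genes. C1r, which varied with an SD of 0.79, was nearest to Tlr2 (0.12) and Ripk2 (0.14), a bacterial lipoprotein receptor and a kinase of the NOD receptors. C1s (SD 1.32) was nearest to the chemokine gene Cxcl1 (0.16), then Id4 (0.28) and Crybg1 (0.33). C2 (SD 0.97) was nearest to Trafd1 (0.10), the interferon regulatory factor Irf1 (0.13) and Tnfaip3 (0.14), an inhibitor of NF-kappaB signalling. Serping1 (SD 1.26) was nearest to RT1-M3-1 (0.16, shared reads), Stat2 (0.18), a transcription factor of interferon signalling, and Znfx1 (0.18).

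The genes nearest to Cfb (SD 2.54) were Oas1g (0.26), RT1-S3 (0.27) and Usp18 (0.29), all with shared reads and hence uncertain. Near C3 (SD 0.86) were the matrix gene Spon1 (0.21), Plxdc1 (0.23) and Spon2 (0.24, shared reads). Near Cd55 (SD 0.99) were Hsd17b7 (0.19), Clspn (0.20), both with shared reads, and Nsg2 (0.23). Cd59, which varied little (SD 0.34), was nearest to Rnf13 (0.05), Tfpi (0.07) and Pcnp (0.07). These distances describe profiles over 4 conditions, in which many genes differ between the same groups.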

How the data were processed

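RNA was extracted from 12 NRVM cultures (4 groups of 3). The authors deposited expected counts per gene, not normalized, and FPKM values for the same 18483 genes. The submitters' processing notes name HISAT, Bowtie2 and Rnor_6.0, and the counting program and annotation are not given in the sources used here. Expected counts are whole in 78.7% of values, and the 8 members are whole in every sample. Genes with other values share reads.

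Expected counts were rounded, filtered with filterByExpr (13967 genes kept, the 8 members included), scaled by TMM factors, and the 4 groups entered a single fit (edgeR 4.0.16, R 4.3.3, quasi-likelihood F-test, Benjamini-Hochberg adjustment over all genes tested, 8 residual degrees of freedom). Genes were called at an adjusted p below 0.05, and separately with an absolute log2 fold change above 1. SE is the log2 fold change over the root of F, and 95% intervals of single genes are not adjusted. No sample was a copy of another: within groups, chi-square over degrees of freedom was 4.70 to 34.2. The p-values set each group difference against the spread between these cultures, estimated over the 4 groups together. The fits were also run on simulated counts, for knockdown without PE only and with the same spread for every gene. The other comparisons and the interaction were not simulated.

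Members and lists were chosen with earlier results of these data known. Named besides the members were up to 6 list genes per comparison past both thresholds with the largest changes, Slc39a2 and the 3 nearest genes of each member. Names outside this rule (C5, C8a, Cfi) were chosen after their values were seen. Tor1b, the third gene near C1r, has shared reads and lay at 0.14. Alternatives were DESeq2 1.42.0, RLE size factors, no filter, the groups of each comparison alone, a replicate block, quantile-normalized limma 3.58.1 (log2 of FPKM with a pseudocount of 1 or 0.1, or of counts with 1), and leaving out each library. The labels give 36 h of PE and the study's culture methods another duration, so no result rests on it.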

Additional observations from a re-analysis of the deposited data

Results flagged for a closer look

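The knockdown effect differed between cells with and without PE for 4 of the 8 complement genes by the interaction term of edgeR. The difference (with PE less without PE, log2) was -0.65 for C1r, where knockdown gave 1.14 and 1.80. It was -1.26 for C1s (1.73 and 2.98), -1.47 for Cfb (4.22 and 5.69) and -0.90 for C3 (-2.03 and -1.14). The values were adjusted over the 13967 genes tested, with adjusted p of 0.000752, 0.000213, 0.0174 and 0.0492 from edgeR in the same order. No outlier test was run on the groups of 3 samples. When 1 library at a time was left out, the C1r and C1s calls held in 12 of 12 fits. The Cfb call held in 9 of the 12 and the C3 call in 2.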

How the results depend on the processing

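Over the 4 comparisons of groups, most member results kept their direction and their side of the threshold under 9 alternative settings and when each library was left out (119 of 120 for knockdown without PE, 113 of 120 for knockdown with PE, 116 of 120 for PE in control cells and 117 of 120 for PE after knockdown). For the interaction this held for 143 of 160, and the other 17 lost the call. Direction turned for values near 0: Cd59 after knockdown without PE was -0.02 without siSlc39a2 replicate 3 (-0.02 to 0.14 over the libraries left out), and C1s for PE after knockdown was -0.01 in limma on log2(count + 1) and -0.01 without siSlc39a2.PE replicate 3 (-0.01 to 0.04 over the libraries left out). C3 for PE after knockdown became a call in limma on log2(count + 1) (-0.42, adjusted p = 0.043).

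Limma on log2(FPKM + 1), with and without the filter on low values, compresses low genes and gave fewer calls at both thresholds. Among the 22 list genes these were 1 for knockdown without PE (7 in edgeR), 2 for knockdown with PE (8), 0 for PE in control cells (4, with 12 and 14 at an unadjusted p below 0.05 in these limma fits) and 3 for PE after knockdown (6). Among the members they were 5 for knockdown without PE (6, C3 being the one lost at -0.63), 1 for PE in control cells (2), 0 for PE after knockdown (1, with 6 at an unadjusted p below 0.05) and 1 for the interaction (2). Fitting the groups of the comparison alone gave 8 list genes at the adjusted p for PE after knockdown (13 with all groups). For the interaction the list genes called at the adjusted p were 1 in edgeR, 2 in DESeq2, 5 in limma on log2(FPKM + 1) with either filter, 4 on log2(FPKM + 0.1) and 3 on log2(count + 1), of which 2 and 2 passed both thresholds in the last pair of fits.

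Leaving out 1 library moved the list genes called for PE after knockdown between 8 and 14, and the members past both thresholds there between 1 and 2 (Cfb was the further one, at -1.01, without siSlc39a2 replicate 3). Members called for the interaction were between 2 and 4 (2 without siNeg replicate 2 or siNeg.PE replicate 1), and those past both thresholds between 1 and 2.

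The labels share replicate numbers across groups, but not every same-numbered pair of samples deviated together (mean correlation across genes 0.00614, 0.149, 0.191 and 0.0512 in the 4 comparisons, lowest -0.0107, 0.00387, 0.0535 and -0.0904). With the replicate block as a term the members called were 6, 7, 6, 6 and 4, as without it, and the list genes called for the interaction were 2 (1 without it). Depth limited Cfb and Cd55 most, with 10 to 13 and 19 to 23 counts per siNeg sample.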
